A study of Canis lupus familiaris with 30 samples.

Results

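This account describes the genes that took a large share of the counts in both stromas of canine simple mammary carcinoma (mCA). The 61 members were chosen by their median level, which had to be at least 500 CPM (the estimated count of a gene as a share of the column total of its library, scaled to a sum of 1000000) both in cancer-associated stroma (CAS) and in normal stroma, with medians at most 4-fold apart. The table listed 18582 genes in all. The gene with the highest counts in most libraries, ENSCAFG00000007590, is called the leading gene and is shown apart from the other 60 members. The rule rests on measured levels in both stromas, so the levels themselves and the contrast of CAS with normal stroma are given for the members as a description.

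RNA had been isolated by laser-capture microdissection (LCM), in which a laser separates selected areas from a section. The sections came from formalin-fixed and paraffin-embedded (FFPE) specimens of 15 female dogs. Each dog gave 1 library of CAS, the stroma within the tumour, and 1 of normal stroma beside unaltered mammary glands on the same slides, which makes 30 libraries. The tumours were spontaneous, the cases had been chosen for absent or negligible inflammation, and the normal stroma came from tumour-bearing mammary tissue and not from healthy dogs. The dogs were between 4 and 14 years old and the samples had been stored for between 3 and 27 months. The labels gave 6 dogs as neutered, and for the other 9 neuter status was not stated. The carcinoma was tubular in 8 dogs and of another or a mixed subtype in 7. The normal stroma libraries of dogs 128 and 136 held 29284 and 32528 counts and were left out by the rule, which left 15 libraries of CAS with totals between 1361951 and 5572761 and 13 of normal stroma with totals between 617177 and 3932370. The lowest count of any member in these 28 libraries was 125, so no member was near the limit of detection there.

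Stroma is the connective tissue around epithelium, made up of fibroblasts, extracellular matrix, vessels and immune cells, and fibroblasts are its main source of matrix transcripts. In CAS these cells are changed in state by the neighbouring carcinoma. Libraries made from total RNA after removal of ribosomal RNA also hold nuclear, mitochondrial and other non-coding transcripts, and a few very abundant transcripts can take much of a library. Because CPM is a share of a fixed sum, a higher value of a dominant gene lowers the values of all others in the same library. The deposited table lists genes by Ensembl ID only, and 0 IDs could be paired with a gene symbol. No function is therefore given for a member, and markers of fibroblasts, epithelium, muscle, fat or blood could not be checked against the labelled tissue.

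The members together took a large part of the counts of every one of the 28 libraries. In CAS their share was 30.8% at the lowest (dog 123), 54.1% at the median and 67.5% at the highest (dog 131). In normal stroma the share was 37.2% at the lowest (dog 123), 57.7% at the median and 68.1% at the highest (dog 135). The ranges of the 2 stromas overlapped, and dog 123 held the lowest share in both. Within dogs, the share of all 61 members was higher in CAS in 3 of 13 dogs, with a median difference of -6.04 percentage points.

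The leading gene took about the same share of the counts in CAS as in normal stroma. Its share of a CAS library was 13.8% at the lowest (dog 123), 23.6% at the median and 38.7% at the highest (dog 132). In normal stroma its share was 15.6% at the lowest (dog 137), 25.1% at the median and 35.3% at the highest (dog 132). It ranked first in 29 of 30 libraries, the exception being the shallow normal stroma library of dog 128, where it took 5.81%. The difference of CAS from normal stroma ran from -11.1 percentage points in dog 121 to 11.0 in dog 131, with a median of 1.68, and the share was higher in CAS in 7 of 13 dogs. On the log2 scale the median within-dog difference was 0.09 by column total and -0.17 by TMM effective total, the library size after the trimmed mean of M-values scaling, so its sign depended on the scaling. In a bulk library, fewer cells of a type cannot be told apart from less RNA per cell, and this holds for all differences below.

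The other 60 members took a smaller share of the counts in CAS than in normal stroma when the libraries of a dog were compared, in each of 13 dogs. Their share in CAS was 17.0% at the lowest, 28.3% at the median and 37.9% at the highest. In normal stroma it was 21.4%, 32.5% and 42.1%, and the median within-dog difference was -4.08 percentage points. With the leading gene removed from the column total, the 60 members held 38.2% of the remaining counts in CAS and 43.6% in normal stroma at the median, and the share was lower in CAS in 12 of 13 dogs (dog 131 being the exception). Most of these counts were those of the members ranked 2 to 5 by median CPM over the 28 libraries. These 4 genes held 18.8% of a CAS library and 19.8% of a normal stroma library at the median. The remaining 56 members, ranked 6 to 61, held 9.79% and 10.2%. Within dogs, the median difference was -3.37 percentage points for ranks 2 to 5, with CAS higher in 3 of 13 dogs. For ranks 6 to 61 it was -0.49 percentage points, with CAS higher in 4 of 13 dogs. CPM is not corrected for gene length, so these ranks order shares of counts and not numbers of transcripts.

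**Figure D1:**
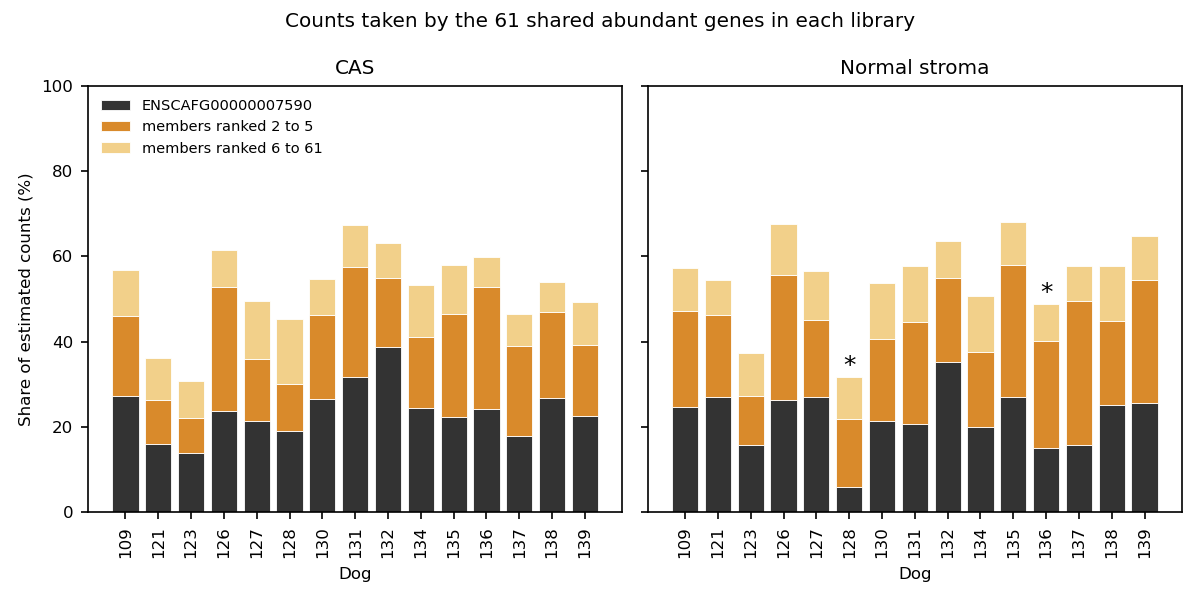
Share of the estimated counts (%, vertical axis) taken by the leading gene, by the members ranked 2 to 5 and by those ranked 6 to 61 in each library, by dog, for CAS and normal stroma. An asterisk marks the 2 shallow libraries left out by the rule; the stacked bars of the other libraries reach from 30.8% to 67.5% in CAS and from 37.2% to 68.1% in normal stroma.

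Levels declined steeply with rank. The leading gene had a median of 236395 CPM in CAS and 250573 CPM in normal stroma, and the gene ranked second had 97934 and 105797 CPM. Median levels of 42357 and 41807 CPM were found for rank 3, of 23551 and 29194 CPM for rank 4, and of 21287 and 24922 CPM for rank 5. From rank 6, with 9906 and 10452 CPM, the medians went down to the threshold. In CAS, 5 members had a median of at least 10000 CPM, 31 lay between 1000 and 10000 CPM and 25 between 500 and 1000 CPM. In normal stroma these numbers were 7, 29 and 25. Of the 10 genes with the highest counts in a library, between 8 and 10 were members in either stroma. Of the highest 61 genes, between 37 and 47 were members in CAS (median 42) and between 37 and 48 in normal stroma (median 44). The rank order of the members was related between libraries, with a median Spearman's rho over the 61 genes of 0.72 (from 0.23 to 0.94) for any pair of libraries and of 0.74 (from 0.62 to 0.90) for the 2 stromas of a dog. These coefficients describe genes within libraries, and genes are not replicates.

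The threshold left some genes of similar level outside. A median of at least 500 CPM was reached by 92 genes in CAS, by 85 in normal stroma, by 114 in at least 1 stroma and by 63 in both. Of the 63, the 2 that the limit on the ratio removed had medians of 7599 and 1325 CPM (5.73-fold) and of 3371 and 507 CPM (6.65-fold), in CAS and normal stroma respectively. The members closest to the floor had a CAS median of 528 CPM and a normal stroma median of 505 CPM. Just outside were a gene with 493 CPM in CAS and 653 CPM in normal stroma and a gene with 1923 CPM in CAS and 493 CPM in normal stroma. The largest ratio among members was that of ENSCAFG00000006142, 2.85-fold.

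Between the stromas, most members differed little at the median over dogs. By column total, the median within-dog log2 ratio of CAS to normal stroma was above 0 for 34 members and below 0 for 27, it lay within 0.5 of 0 for 42 of 61, and it exceeded 2-fold for 3. The median over the members was 0.04, whereas that over all 10663 genes tested was 0.28. For all genes a small offset was added to CPM before the log, and for the members none was. The rule for the members limited this contrast, so nothing is read from the difference of these medians. With TMM effective totals the median of all genes was 0.10 and that of the members -0.08, and 21 members were above and 40 below 0. Without the leading gene in the column total the split was 35 above and 26 below. The balance of higher and lower members is thus set by the scaling, and 15 members changed sign between column totals and TMM.

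The 2 members with the lowest within-dog medians were ENSCAFG00000032525 and ENSCAFG00000006142. ENSCAFG00000032525 (rank 10) had 2162 CPM at the lowest, 3828 at the median and 7872 at the highest in CAS, compared to 4389, 10697 and 16167 CPM in normal stroma. The ranges overlapped between dogs, but the level was lower in CAS in 13 of 13 dogs, with a median within-dog log2 ratio of -1.33 (from -2.31 to -0.37). ENSCAFG00000006142 (rank 33) had 171, 759 and 1870 CPM in CAS and 815, 2165 and 3552 CPM in normal stroma. It was lower in CAS in 12 of 13 dogs, with a median log2 ratio of -1.22 and a wide range from -4.14 to 0.47. Both medians stayed below -1 under each of the 3 scalings.

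At the other end, by column total, were ENSCAFG00000019848 and ENSCAFG00000014837. ENSCAFG00000019848 (rank 52) had 214, 1283 and 2398 CPM at the lowest, median and highest in CAS and 136, 529 and 1107 CPM in normal stroma. The level was higher in CAS in 13 of 13 dogs, with a median log2 ratio of 1.03 by column total and 0.64 by TMM. ENSCAFG00000014837 (rank 34) had 419, 1363 and 2754 CPM in CAS and 378, 1009 and 1442 CPM in normal stroma. CAS had the higher level in 10 of 13 dogs, with a median log2 ratio of 0.78 by column total and 0.34 by TMM. The order depended on the scaling: under TMM the member ranked 19 had the highest median, 0.79, and several members passed ENSCAFG00000014837. Both genes spread widely between dogs, and their ranges in the 2 stromas overlapped.

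By column total, 2 members were higher in CAS in every one of 13 dogs, where 2.4% of all genes tested were, and 4 members were lower in every dog, where 1.02% of all genes were. Besides ENSCAFG00000019848, the member ranked 19 was higher in all dogs, with medians of 2305 CPM in CAS and 1213 CPM in normal stroma. Besides ENSCAFG00000032525, those ranked 4, 9 and 17 were lower in all dogs, with median log2 ratios of -0.30, -0.90 and -0.92. Under TMM 1 member was higher in every dog, where 1.69% of all genes were, and 5 were lower, where 1.74% were. These counts use the contrast on which the members were chosen.

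In edgeR's quasi-likelihood test with the dog as a block and 4 surrogate variables (estimated factors of unwanted variation), 323 of 10663 genes passed with a change over 2-fold and an FDR (Benjamini-Hochberg) below 0.01, which is 3.03% of all genes. Among the 61 members 3 were called, 0 higher in CAS, where 1.04% of all genes were called, and 3 lower, where 1.99% were. The 3 were ENSCAFG00000032525 (log2 fold change -1.41, SE 0.194) and those ranked 9 (-1.13) and 17 (-1.08). ENSCAFG00000032525 was called in 9 of 9 fits, which are this one and those with other settings or tools. ENSCAFG00000006142, with a log2 fold change of -1.89 and an SE of 0.417, was not called in this fit and was called lower in 5 of 9. ENSCAFG00000019848 (0.49) and ENSCAFG00000014837 (0.27) were called in 0 of 9 fits. With FDR below 0.05 and no limit on the fold, 2 members were higher, against 2.99% of all genes, and 7 were lower, against 4.47%. Since the rule for the members used this contrast and limited its size, nothing is read from these counts.

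**Figure D2:**
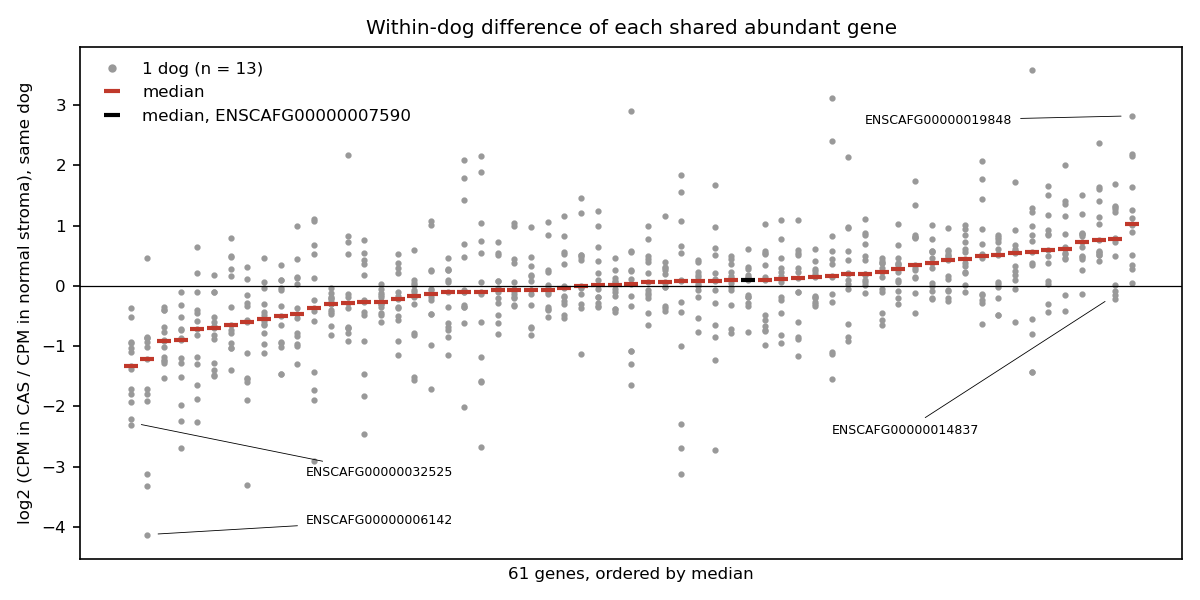
Log2 ratio of CPM in CAS to CPM in normal stroma of the same dog (vertical axis) for each of the 61 members, ordered by median, with 1 point per dog (n = 13) and a bar at the median. Most medians lie within 0.5 of 0, from -1.33 for ENSCAFG00000032525 to 1.03 for ENSCAFG00000019848, and the leading gene (black bar, 0.09) lies near the middle.

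Across dogs, the members spread less than all genes tested in normal stroma, while in CAS the direction depended on the measure. The median SD of log2 CPM over the members was 0.596 in CAS and 0.512 in normal stroma, compared to 0.696 and 0.891 over all 10663 genes tested. By mean absolute deviation with TMM scaling in the paired dogs, the medians in CAS were 0.472 for the members and 0.444 for all genes tested. In normal stroma they were 0.352 and 0.626. Most of the other genes have far fewer counts, and the part of counting error in these differences was not tested. The highest and lowest dog differed by a median of 4.19-fold in CAS (from 2.03- to 32.5-fold) and of 3.45-fold in normal stroma (from 1.87- to 66.2-fold). In CAS 15 members ranged over less than 3-fold and 8 over more than 10-fold, and in normal stroma 24 and 3 did.

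The leading gene was among the steadier members. Its SD of log2 CPM was 0.377 in CAS and 0.329 in normal stroma, and its level ranged over 2.80-fold and 2.26-fold. Its level in CAS was not clearly tied to the level in normal stroma (Pearson's r = 0.541, permutation test, p = 0.0574, Spearman's rho = 0.115, p = 0.709, 13 dogs, 1 relation tested). Dogs 123 and 132 were left out next, because their CAS levels lay farthest from the CAS median. Without them r was -0.01 (permutation test, p = 0.980), so the coefficient depended on those dogs. Leaving out the extreme values narrows the range, so this p is not a separate check of the relation. The smallest SD of log2 CPM taken within stroma belonged to ENSCAFG00000029384 (rank 27), with an SD of 0.284 in CAS and 0.226 in normal stroma. It had 880 CPM at the lowest, 1253 at the median and 1783 at the highest in CAS and 843, 1263 and 1593 CPM in normal stroma, so that the 2 stromas covered almost the same range.

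The largest SD taken in this way belonged to ENSCAFG00000017018 (rank 6). It had 1045 CPM at the lowest (dog 123), 9906 at the median and 33953 at the highest (dog 128) in CAS, and 606 (dog 137), 10452 and 21215 CPM (dog 126) in normal stroma. The SD of log2 CPM was 1.640 in CAS and 1.796 in normal stroma. The ranges were thus 32.5- and 35.0-fold, whereas the medians of the stromas were close. ENSCAFG00000014812 (rank 7) ranged over 21.6-fold in CAS and 66.2-fold in normal stroma, where it had the larger SD of these genes, 1.94. ENSCAFG00000000874 (rank 45) differed in its spread between the stromas: it ranged over 20.7-fold in CAS, from 90.3 CPM in dog 138 to 1871 CPM in dog 131, and over 2.38-fold in normal stroma, from 522 to 1244 CPM. The last 2 genes were chosen after their values were seen.

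By SD of log2 CPM, 42 of 61 members were wider in CAS than in normal stroma, where 29.6% of all genes were. With TMM scaling, a prior count of 2 and the 13 paired dogs, 39 of 61 members were wider in CAS by mean absolute deviation, where 23.1% of all genes were. The CAS libraries were the deeper ones in 10 of 13 dogs, and the part of depth in this direction was not tested. A limma test of the absolute deviations from the stroma median, with the dog as a block, called 0 members and 0.0% of all 10463 genes at a Benjamini-Hochberg FDR below 0.05. At an unadjusted p below 0.05 it gave 5 members (8.2%), where it gave 10.2% of all genes, and with deviations from the mean in place of the median it called 0 members and 7 of all genes (0.0669%). A difference in spread of single members was therefore not detectable with 13 dogs. In simulated data with an SD of 3 on the log2 scale added in CAS, the test recovered 74% of the changed genes, so smaller differences in spread could be missed.

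**Figure D3:**
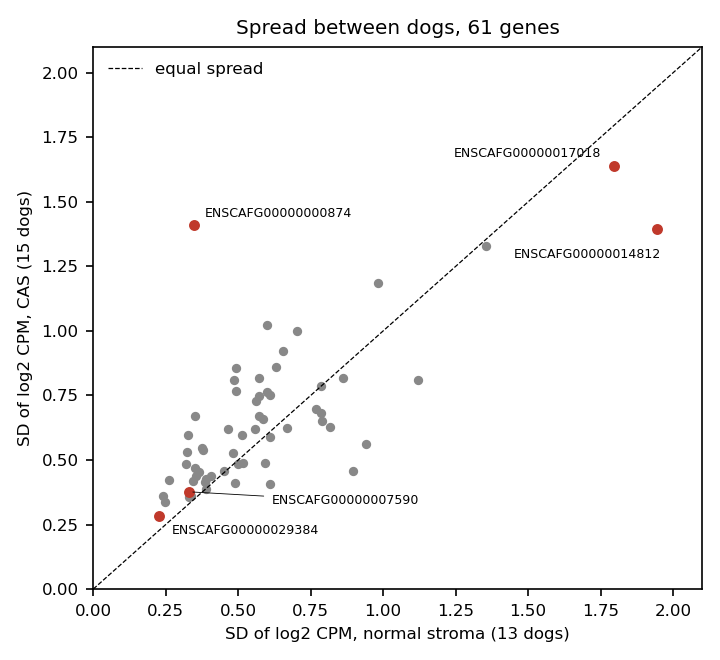
SD of log2 CPM over dogs for each of the 61 members in normal stroma (horizontal axis, 13 dogs) and in CAS (vertical axis, 15 dogs), with the line of equal spread. 42 members lie above the line; ENSCAFG00000017018 and ENSCAFG00000014812 spread most in the 2 stromas together, and ENSCAFG00000000874 lies far above the line (20.7-fold in CAS, 2.38-fold in normal stroma).

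Some members varied together from dog to dog. To describe this, the CPM of the 60 members other than the leading gene were recomputed without the counts of that gene, taken as log2 values and centred within each stroma, and Pearson's r was computed over the 28 libraries, which share the column total. Of 1770 pairs, 12 had an r over 0.9, 77 over 0.7 and 20 under -0.7, with a median of 0.06. Average-linkage clustering at a distance of 0.5 placed 47 members in 7 groups of at least 3 genes and left 13 outside. The 2 stromas of a dog are not independent, so no p is given for these values.

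The largest group held 13 members, among them ENSCAFG00000017018, ENSCAFG00000014812, ENSCAFG00000002069 (rank 8), ENSCAFG00000019848 and ENSCAFG00000014837. The correlation of ENSCAFG00000017018 with ENSCAFG00000002069 was 0.99, that with ENSCAFG00000014812 was 0.98 and that with ENSCAFG00000019848 was 0.96. These correlations were also high within CAS (0.99, 0.98 and 0.96) and within normal stroma (0.98, 0.99 and 0.97). Together the 13 members took 0.886% of the counts at the lowest (dog 123), 3.49% at the median and 9.10% at the highest (dog 128) in CAS, and 0.799% (dog 137), 3.92% and 6.69% (dog 126) in normal stroma. Both members with the highest within-dog medians by column total belong to this group, whereas the member ranked 19, which had the highest median under TMM, belongs to none. ENSCAFG00000002069 was named after its values were seen.

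**Figure D4:**
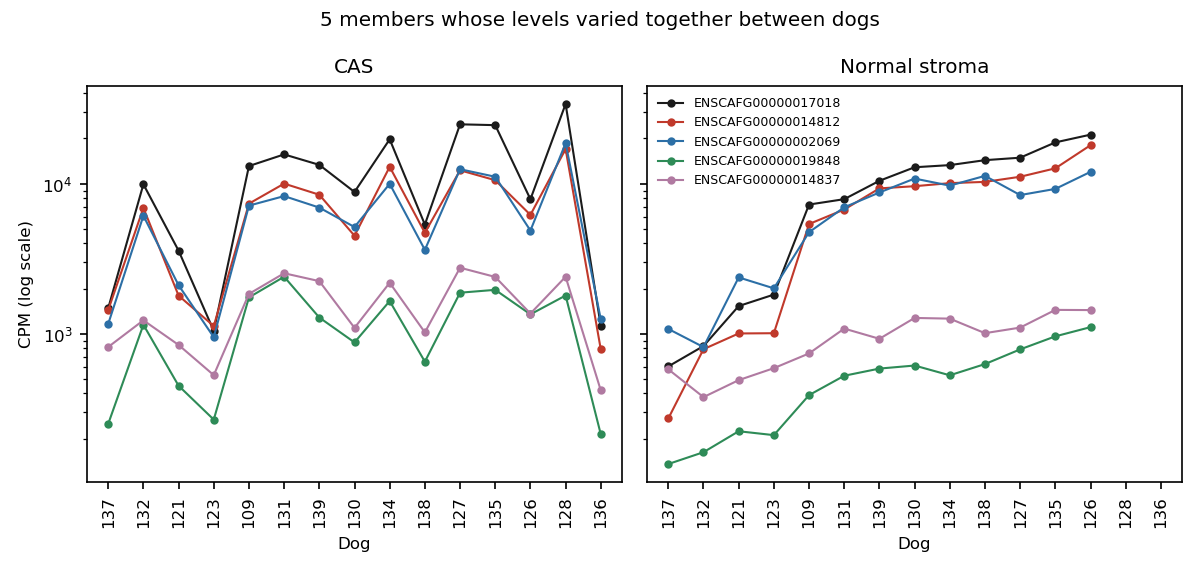
CPM on a log scale of 5 members of the largest group of covarying genes in CAS (left, 15 dogs) and in normal stroma (right, 13 dogs), with dogs in both panels ordered by ENSCAFG00000017018 in normal stroma and 1 line per gene. The lines run largely in parallel, and in normal stroma ENSCAFG00000017018 goes from 606 CPM in dog 137 to 21215 CPM in dog 126; dogs 128 and 136 have no point in normal stroma.

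A second set held the members ranked 2 to 5 together with ENSCAFG00000029384. These 5 genes were correlated with a median r of 0.75 (from 0.50 to 0.86), although their spread differed, and they took 18.9% of the counts of a CAS library and 19.9% of a normal stroma library at the median. Their share ran from 8.37% in dog 123 to 29.4% in dog 126 in CAS and from 11.6% in dog 123 to 34.2% in dog 137 in normal stroma. Against them stood a group of 11 members, ranked between 25 and 61, whose median r with these 5 genes was -0.59 (from -0.89 to -0.29). The median share of this group was 0.991% in CAS and 0.825% in normal stroma, with the highest share in dog 123 and the lowest in dog 132 in both stromas. Since all shares add up to the same total, an r below 0 between the most abundant genes and others is in part built into CPM, and how much was not tested.

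The remaining groups held between 3 and 6 genes. The 6 genes that included ENSCAFG00000006142 and ENSCAFG00000000874 had a median r of 0.78 within CAS and of 0.42 within normal stroma. The 5 genes that included ENSCAFG00000032525 and the member ranked 17 had a median r of 0.51 within CAS and of 0.87 within normal stroma, and their share of the counts was 0.727% in CAS against 1.63% in normal stroma. A group of 3 held the members ranked 9, 16 and 23, of which those ranked 9 and 23 were correlated at 0.95. The difference of r between the stromas was not tested for any group. A group of 4 had a median r of 0.76 (from 0.61 to 0.84) with a median share of 0.414% in CAS and 0.394% in normal stroma. Of the members, 6 have IDs in a run from ENSCAFG00000022723 to ENSCAFG00000022742, in which the table lists 11 IDs, and all 6 belong to the groups of 11 and of 4 genes. They were correlated with a median r of 0.66 (from 0.35 to 0.84), had a summed share of 0.654% in CAS against 0.529% in normal stroma, and were each higher in CAS in between 6 and 12 of 13 dogs. What lies at these IDs was not looked up, because no annotation of the authors' build was used here.

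The highest and lowest levels of the members were counted by dog in each stroma. In CAS dog 123 held the highest level of 16 members and the lowest of 12, and in normal stroma it held the highest of 19 and the lowest of 6. For 12 members dog 123 was highest in both stromas. Dog 131 held the lowest level of 15 members in CAS and dog 135 that of 15 members in normal stroma. The same dog was highest in both stromas for 16 of 61 members and lowest in both for 14. Dogs 128 and 136, with 5 and 7 of the highest levels in CAS, had no normal stroma library among those kept. Dog 123 also had a low share of the leading gene, 13.8% in CAS and 15.8% in normal stroma. How far this raised its other CPM values was not tested. The share over all genes was not computed, so nothing is read from these counts about the members.

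Whether the CAS and the normal stroma library of a dog deviate together was tested across all genes. The rule used medians over dogs, so this question is separate from it. The correlation of log2 CPM between the stromas of the same dogs had a median of 0.50 over the members (from -0.31 to 0.93), and it was over 0.5 for 30 members (49.2%), whereas the median over all genes was 0.25 and 20.4% were over 0.5. In edgeR's quasi-likelihood test of the differences between 13 dogs, with stroma as a covariate, 13 of 10463 genes (0.124%) and 0 members passed an FDR (Benjamini-Hochberg) of 0.01. At an unadjusted p below 0.05, 30 members (49.2%) were found, where 10.4% of all genes were. This share went up with the level of the gene: it was 9.08% of genes whose lower stroma median was under 10 CPM, 10% from 10 to 100 CPM, 19% from 100 to 500 CPM and 49.2% from 500 CPM, the last class of 63 genes being almost the members alone. The likelihood ratio test of DESeq2 called 25 members, where it called 6.11% of all genes, and edgeR without a filter on low counts called 9, where it called 0.821%.

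At an FDR below 0.05, edgeR called 2 members between dogs, where 0.659% of all genes were called. They were ENSCAFG00000031832 (rank 23, Benjamini-Hochberg adjusted p = 0.0161) and ENSCAFG00000009243 (rank 11, adjusted p = 0.0457), which are named because they were called. ENSCAFG00000031832 had 614 CPM at the lowest (dog 134), 1207 at the median and 2286 at the highest (dog 136) in CAS, and 983 (dog 123), 1832 and 4522 CPM (dog 131) in normal stroma. Its correlation between the stromas over 13 dogs was 0.64. ENSCAFG00000009243 had 1321 CPM at the lowest, 2431 at the median and 6494 at the highest in CAS, and 1109, 2642 and 6439 CPM in normal stroma, with a correlation of 0.87. Dog 132 had the lowest level of ENSCAFG00000009243 in both stromas.

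Neuter status, carcinoma subtype and the age of the sample were compared within each stroma with edgeR's quasi-likelihood test at a Benjamini-Hochberg FDR below 0.05. For 8 dogs with a tubular carcinoma against 7 with another subtype, 0 members and 0.0% of all genes were called in CAS, and likewise in normal stroma (7 against 6 dogs). At an unadjusted p below 0.05 there were 2 members in CAS, where 3.28% of all genes were, and 1 in normal stroma, where 2.97% were. For the age of the sample 0 members and 0.0% of all genes were called in either stroma, with 3 members at an unadjusted p below 0.05 in CAS (8.77% of all genes) and 3 in normal stroma (2.85% of all genes). For neutered dogs in CAS 0 members and 0.0% of all genes were called, with 2 members at an unadjusted p below 0.05 (4.79% of all genes). DESeq2 called 0 members in each of these comparisons. Over all genes it called 2 (0.0177%) for subtype and 39 (0.304%) for the age of the sample in CAS, 1 each for these 2 comparisons in normal stroma, and 0 for neutered dogs in CAS.

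In normal stroma, 51 of 10421 genes (0.489%) were called between 5 dogs labelled neutered and 8 without that label, and 1 of them was a member, ENSCAFG00000003120 (rank 16), which is named because it was called. At an unadjusted p below 0.05, 4 members were found, where 8.16% of all genes were. Its normal stroma level in the neutered dogs was 2264 CPM in dog 109, 3462 CPM in dog 130, 7061 CPM in dog 131, 4463 CPM in dog 132 and 7793 CPM in dog 137. In the other 8 dogs it was 1091 CPM at the lowest, 1605 at the median and 2599 at the highest. The groups overlapped only through dog 109, which lay below the highest of the others. The log2 fold change was 1.57 (SE 0.279, edgeR adjusted p = 0.00794), and DESeq2 gave an adjusted p of 1.47e-06. Leaving out each library in turn gave log2 fold changes between 1.34 and 1.74 and adjusted p-values in edgeR between 0.00121 and 0.0472.

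In CAS the same gene had 1264 CPM at the lowest, 1732 at the median and 4785 at the highest in 6 neutered dogs, and 1696, 1868 and 2185 CPM in the other 9. The log2 fold change there was 0.57 with an adjusted p of 0.97 (edgeR). The interaction of neuter status with stroma was fitted to the 13 dogs with both libraries kept. These leave out dog 136, which had the highest CAS level, 4785 CPM. The estimate therefore need not equal the difference between the separate fits within each stroma. It was -1.30 (CAS minus normal stroma, SE 0.316) and did not pass the correction over all genes in edgeR's test (p = 0.000678, adjusted p = 0.528). The gene had been chosen for its call in normal stroma, so this unadjusted p is not independent of that choice. The interaction test called 0 members and 0.0% of all genes, with 7 members at an unadjusted p below 0.05 (11.5%), where 6.62% of all genes were.

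The normal stroma libraries of the neutered dogs were also the shallow ones among those kept. Their totals were between 617177 and 1365123 counts, and those of the other dogs between 2503672 and 3932370, with no overlap. In normal stroma, neuter status and library depth therefore cannot be told apart. The samples of the neutered dogs had been stored for a median of 13 months and those of the others for 9.5 months. In the 2 libraries left out, ENSCAFG00000003120 had 5903 CPM in dog 136, which was neutered, and 2322 CPM in dog 128, which had no such label, and with these libraries added the adjusted p in edgeR was 0.0227.

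**Figure D5:**
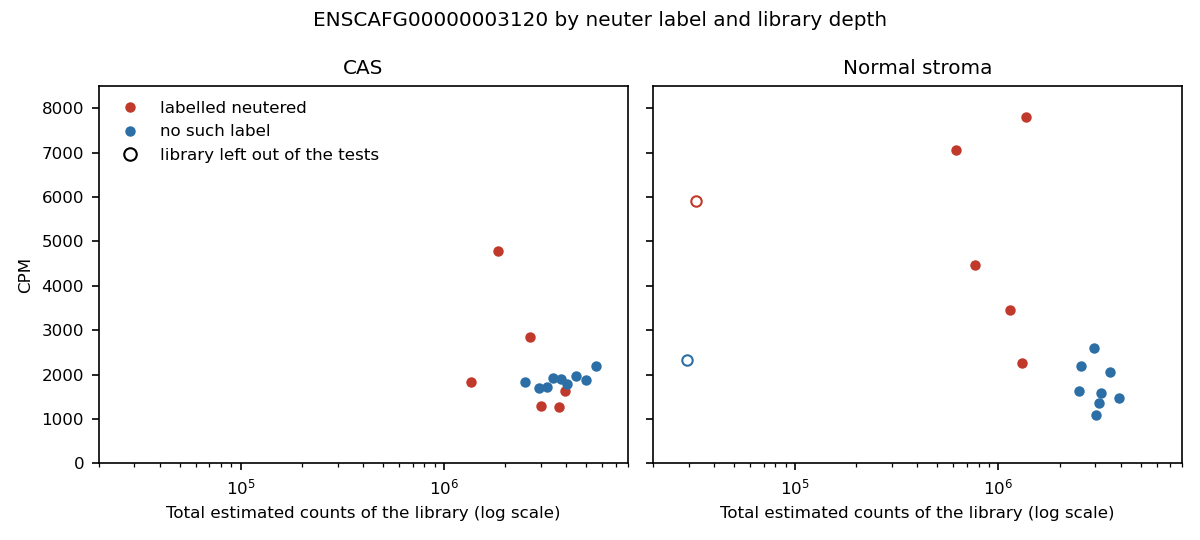
CPM of ENSCAFG00000003120 (vertical axis) against the total estimated counts of the library (horizontal log axis) in CAS and normal stroma, with dogs labelled neutered in red, those without that label in blue and the libraries left out of the tests as open circles. In normal stroma the neutered dogs lie between 2264 and 7793 CPM at totals of at most 1365123 counts, and the others between 1091 and 2599 CPM at totals of at least 2503672.

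In the shallow normal stroma libraries the members were still detected. In both libraries 58 of 61 members had at least 10 counts and 0 were without a count. The members took 31.7% of the counts in dog 128 and 48.8% in dog 136, and the leading gene 5.81% and 15.1%. Relative to the 13 other normal stroma libraries, 9 members were above all of them and 14 below all of them in dog 128, and 1 was above and 11 below in dog 136. Of these, 0 members were above and 3 below all 13 in both shallow libraries. The share of all genes outside the range of the 13 was not computed, so nothing is read from these counts about the members. The rank order of the members in dog 128 was related to the median of the 13 others with a Spearman's rho over genes of 0.67, and that in dog 136 with 0.82.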

How the data were processed

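The authors quantified single-end reads of stranded total RNA libraries (4 ng RNA, removal of ribosomal RNA) with kallisto 0.44.0 on the Ensembl transcriptome of CanFam3.1, correcting for sequence bias, and summarised them per gene with tximport. The deposited values are estimated counts without normalisation, of which 0 have a fraction, and they were used as they are. The quantification splits reads that fit several near-identical genes, so single members with close copies are uncertain. Of the columns, 0 were not used.

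Libraries were assigned to stroma and dog from the labels. The members and the tests were chosen with earlier results of these data known. The named genes were the leading gene, the 2 with the highest and 2 with the lowest within-dog ratio, and those with the largest and smallest spread; other called members are given by rank, and exceptions are stated. Marker lists for epithelium, fibroblasts, immune cells, endothelium, muscle, fat and blood could not be applied without symbols. GC content and length were not used here.

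Tests were made on the whole table in R 4.3.3 with edgeR 4.0.16 (filterByExpr, TMM, quasi-likelihood F test), sva 3.50.0 (num.sv with 20 permutations), limma 3.58.1 and DESeq2 1.42.0, with Benjamini-Hochberg adjustment over all genes tested. Correlations were tested with 100000 permutations, two-sided. CAS and normal stroma came from the same dog, which pairs the libraries, and the dog was kept as a block. Deviations from stroma means had a mean correlation of 0.144 in pairs of 1 dog (lowest 0.0252, highest 0.317, above 0.1 in 8 of 13) and of -0.0106 in pairs of different dogs. No 2 libraries were identical (0 pairs).

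Each procedure was tested on simulated data drawn from the real means and totals. All genes were given the same dispersion (spread beyond counting error), and no difference between libraries was added except the effect under test. The changed genes were drawn from the better expressed ones. The simulations therefore check the procedures and do not give their power or error rate in the real data, where spread differs between genes. At 8-fold, 100% of the 200 changed genes were recovered for CAS against normal stroma, with 0 false calls. For neutered dogs against the others in normal stroma, 100% were recovered with 8 false calls among 10544 genes. In the other comparisons of neuter status, subtype and age of the sample, recovery was between 87.5% (age, normal stroma) and 100%, with between 4 and 12 false calls. The lowest count of a member in the libraries kept was 125, and counting error was not compared with the spread between dogs.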

Additional observations from a re-analysis of the deposited data

How the results depend on the processing

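The number of members was 61 and lay between 61 and 64 when each dog was left out in turn, but it was 92 with the leading gene taken out of the column totals and 31 with a floor of 1000 CPM. Taking that gene out of both the sum and the total changed the share of the members from 54.1% to 38.2% in CAS and from 57.7% to 43.6% in normal stroma, by construction. Between CAS and normal stroma, 3 members were called, all lower. With the replicate block but without surrogate variables 5 were called, all 5 lower, and DESeq2 with the same covariates also gave 5, all 5 lower, while a fit with no replicate block but with surrogate variables gave 3. At an FDR below 0.05 with no limit on the fold there were 9, of which 2 were higher and 7 lower. Over all genes, the calls were 323 with the block and surrogate variables, 615 with the block alone, 575 with surrogate variables alone and 680 with DESeq2. Between dogs 0 members were called, against 25 with the likelihood ratio test of DESeq2, 9 without a filter on low counts and 2 at an FDR below 0.05, and the cause was not tested. The log2 fold change of ENSCAFG00000003120 in neutered dogs lay between 1.34 and 1.74 when each normal stroma library was left out. In all, 100 values, among them the unchanged ones given above, did not change direction or significance, or stayed within 1.5 times the count. Many of these were counts of 0 that stayed at 0. Depth limits the 2 shallow normal stroma libraries, which were left out of all tests unless stated.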
